A study of Mus musculus with 11 samples.

Results

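The genes described here are 10 macrophage and myeloid genes, *Csf1r*, *Cd68*, *Lyz2*, *Fcgr3*, *Cd14*, *Tyrobp*, *Fcer1g*, *C1qa*, *C1qb* and *C1qc*, out of the 18305 genes in a count table of 27 mouse RNA-seq libraries. They were listed by name as genes of myeloid cells, by a rule that uses no measured value but was set with earlier results of these data known. The libraries covered oviduct tissue (n = 3), ovarian surface epithelium (OSE) tissue (n = 3), organoids grown from wildtype oviduct (n = 3) and OSE (n = 2) of C57BL/6 mice, and oviductal organoids of mice with Cas9-P2A-EGFP at the ROSA26 locus (n = 3). From the last, TBP clones (n = 3) had been made, which carried edits in tumor suppressor genes, among them *Trp53* and *Brca1*, and had been selected with Nutlin-3a. Tumors (n = 6) had grown from such clones after transplantation into NSG mice, and tumor-derived organoid lines (n = 4, named T1-mes, T2-epi, T3-mes and T4-epi) had been grown from tumors with Nutlin-3a in the medium against host cells. The tumor cells, the clones and the tumor-derived lines thus shared the Cas9-EGFP background. In the paper a mouse received the same clone at 2 sites, and which of the sequenced tumors shared a mouse is not given. The n = 6 therefore counts tumors, and SDs, SEs and p values take each tumor as a separate host. NSG mice lack T cells, B cells and NK cells but keep macrophages, neutrophils and other myeloid cells, with some defects of function.

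Macrophages depend on CSF1R, the receptor tyrosine kinase for the cytokines CSF1 and IL-34, and many resident and tumor-associated macrophages secrete C1q, the recognition molecule of the classical complement pathway, which is built from the chains encoded by *C1qa*, *C1qb* and *C1qc*. TYROBP and the Fc receptor gamma chain FCER1G are small membrane adaptors with an ITAM, a motif that recruits the kinase SYK, and they carry the signal of receptors without a signaling tail of their own, among them TREM2 and the IgG receptor FCGR3. CD14 binds lipopolysaccharide and hands it to TLR4 with MD-2, CD68 is a glycoprotein of lysosomes, and *Lyz2* encodes the lysozyme of mouse macrophages and neutrophils.

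The table held read counts without correction by molecular identifiers, and libraries summed to 82239 to 4531767 counts. TBP clone 1 was the shallowest library, with 82239 counts against a median of 1571760 over all 27, so that a count of 0 there allowed up to 34.1 CPM (3 counts of its total), and results that rest on the clones were also computed without it. Levels are given as counts per 1e6 counts of a library (CPM), scaled by trimmed mean of M values (TMM) factors over the 27 libraries. RNA was purified with Trizol from tissues and tumors and with a column kit from organoids, so extraction and culture cannot be told apart in a comparison of organoids with tissue. Summed CPM of 8 epithelial genes was 1925 to 2324 in oviduct tissue, 443 to 544 in OSE tissue, and at least 3236 in every organoid library except T3-mes (376), and that of 10 fibroblast genes was 4250 to 7460 in oviduct tissue and 1818 to 3374 in OSE tissue, so both tissues also held stromal RNA. Fewer myeloid cells and less of an RNA per cell cannot be told apart in such bulk samples.

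The 3 C1q genes lie side by side on the minus strand of chromosome 4 of GRCm38, *C1qb* at 136880129-136886187, *C1qc* at 136889804-136893065 and *C1qa* at 136895917-136898803. *Fcgr3* (171051174-171064935) and *Fcer1g* (171229572-171234365) lie on the minus strand of chromosome 1, *Tyrobp* (30413760-30417585) on the plus strand of chromosome 7, *Lyz2* (117277331-117282321) on the minus strand of chromosome 10 and *Cd68* (69664213-69666153) on the minus strand of chromosome 11, all of them protein coding in GENCODE M21. Promoters of 6 of the 10 members were found in the RefSeq promoter table of build GRCm38.p6. The 250 bases before the transcript start are printed for 4 members whose levels moved together across the libraries, 5′ to 3′ on the strand of the gene, with the letters GAGGAA or their reverse complement TTCCTC in capitals, a core that binding sites of the myeloid factor PU.1, encoded by *Spi1*, often hold.
C1qb, chr4:136886201-136886450, minus strand: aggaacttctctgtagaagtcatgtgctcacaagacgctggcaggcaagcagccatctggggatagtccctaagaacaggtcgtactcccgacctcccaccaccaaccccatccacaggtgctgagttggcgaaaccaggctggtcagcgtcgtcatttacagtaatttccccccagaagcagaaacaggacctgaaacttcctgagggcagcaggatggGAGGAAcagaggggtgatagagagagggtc
C1qc, chr4:136892915-136893164, minus strand: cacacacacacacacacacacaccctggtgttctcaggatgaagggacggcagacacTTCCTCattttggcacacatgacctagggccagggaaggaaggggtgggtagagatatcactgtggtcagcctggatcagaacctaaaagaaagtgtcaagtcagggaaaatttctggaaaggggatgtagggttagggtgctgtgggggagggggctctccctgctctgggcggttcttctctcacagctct
Fcgr3, chr1:171059404-171059653, minus strand: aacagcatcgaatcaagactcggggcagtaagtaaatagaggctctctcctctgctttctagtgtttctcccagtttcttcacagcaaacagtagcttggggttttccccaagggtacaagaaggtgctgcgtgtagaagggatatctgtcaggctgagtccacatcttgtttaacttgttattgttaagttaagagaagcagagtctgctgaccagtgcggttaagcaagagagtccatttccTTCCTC
Fcer1g, chr1:171234350-171234599, minus strand: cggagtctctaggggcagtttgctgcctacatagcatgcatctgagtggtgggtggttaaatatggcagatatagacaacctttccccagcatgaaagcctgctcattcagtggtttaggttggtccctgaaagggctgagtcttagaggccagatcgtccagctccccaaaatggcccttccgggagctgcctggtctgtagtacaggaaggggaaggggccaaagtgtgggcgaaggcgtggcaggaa
On either strand, the letters were found in 4 of the 6 members, *C1qb*, *C1qc*, *Fcgr3* and *Cd68*, and not in *Fcer1g* or *Lyz2*. Of 32851 RefSeq promoter windows of the same 250 bases, 23.3% held them. The match is a description of the letters only.

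Across the 8 groups the members fell into patterns that the plot of levels by group shows side by side. *Tyrobp*, *Fcer1g*, *Fcgr3* and the C1q genes were low in tissue, highest in tumors and at or near 0 in every organoid library. *Csf1r* was also highest in tumors but was counted in every culture. *Cd14* was high in organoids, and *Cd68* had no count in any of the 6 normal tissue libraries.

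**Figure D1:**
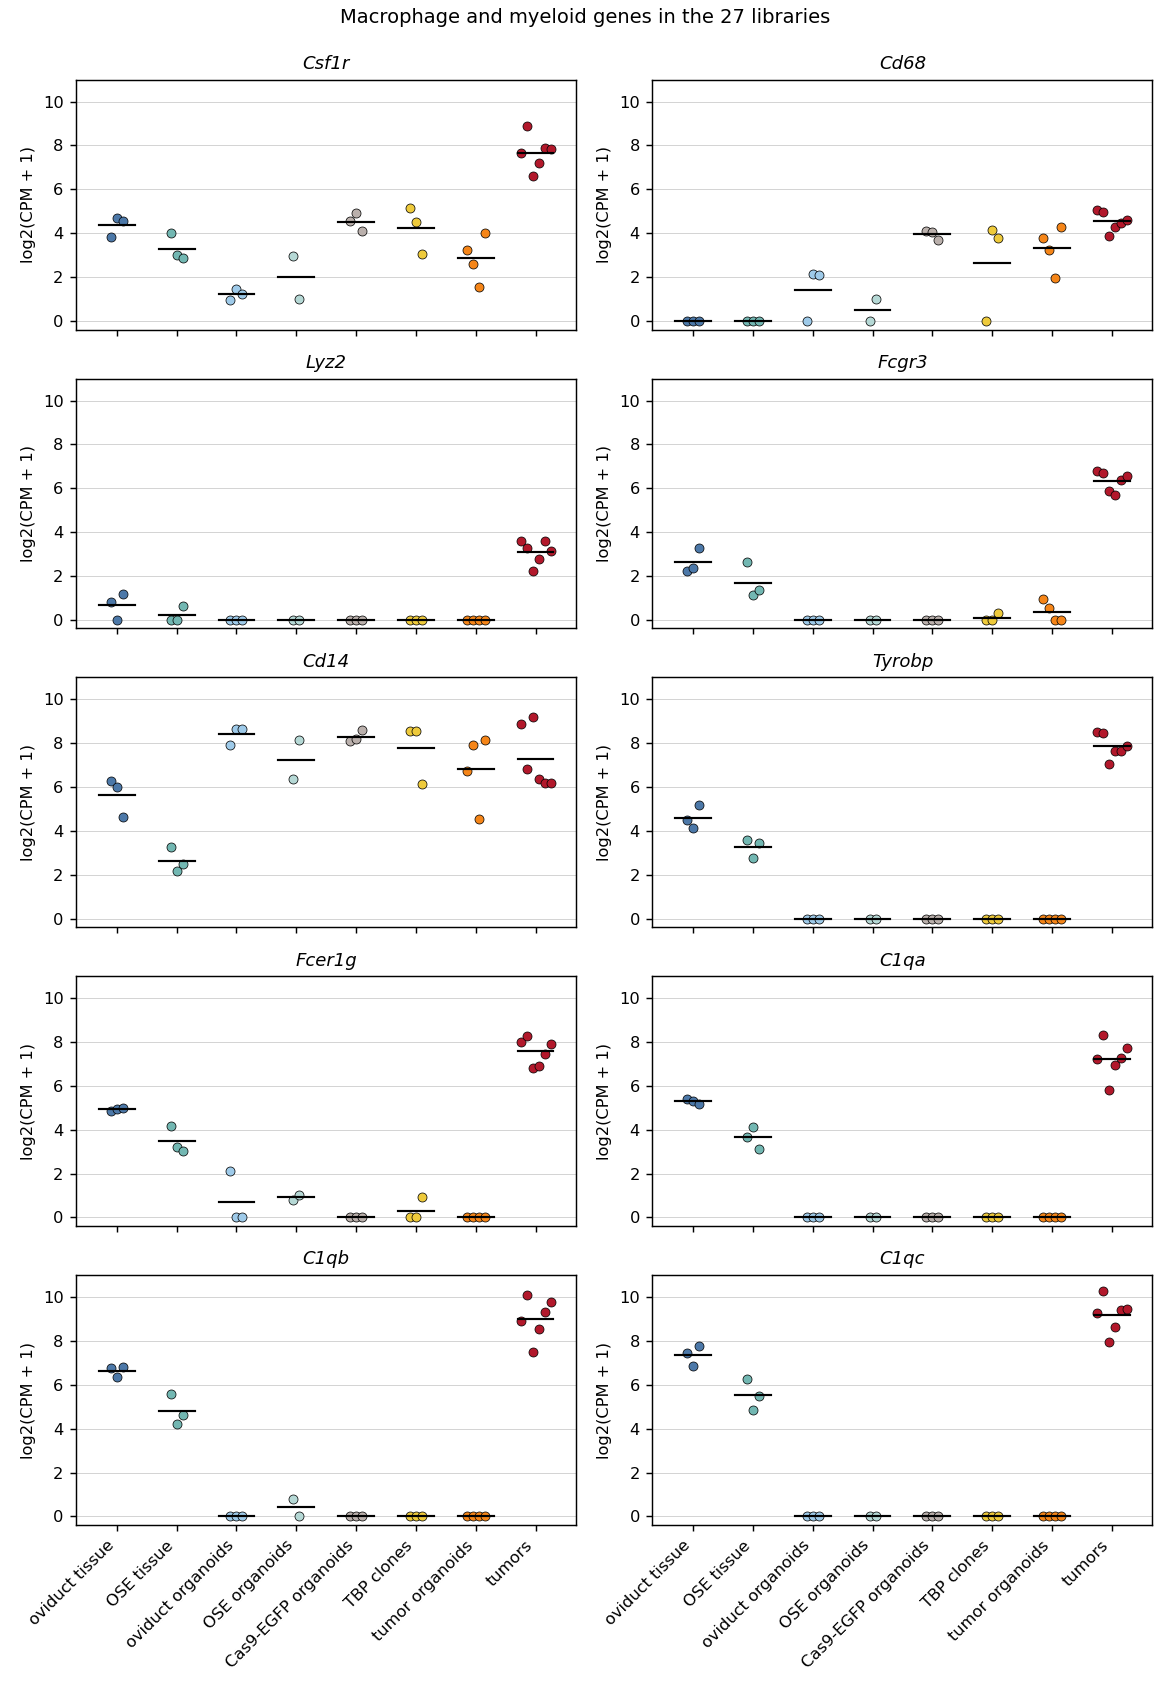
Level of each of the 10 members in each of the 27 libraries, as log2(CPM + 1) on the vertical axis and by group on the horizontal axis, with 1 point a library and a line at the group mean. The 6 tumors lie above all other libraries for 8 of the genes, whereas *Cd14* and *Cd68* overlap between tumors and organoids.

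*Tyrobp* was measured at 21.9, 16.4 and 35.1 CPM in the oviduct tissues and at 11.1, 5.87 and 9.93 CPM in the OSE tissues. In tumors it was 133 CPM at the lowest, 217 at the median and 366 at the highest. No *Tyrobp* read was counted in any of the 15 organoid and clone libraries, so that the tumors lay above all other libraries and the tissues above all cultures. *Fcer1g* was 27.8, 30.2 and 31.3 CPM in oviduct tissue, 17.0, 8.21 and 7.31 CPM in OSE tissue and 113 to 311 CPM in tumors. In the cultures its counts were 7 in oviductal organoids 1, 1 and 2 in the OSE organoids, 4 in TBP clone 3 and 0 elsewhere. *Fcgr3* was 3.65, 4.11 and 8.77 CPM in oviduct tissue, 5.11, 1.17 and 1.57 CPM in OSE tissue and 51.2 to 110 CPM in tumors. Its reads in cultures were 1 in TBP clone 3, 2 in T1-mes and 1 in T2-epi.

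*C1qc* was 177, 115 and 216 CPM in oviduct tissue and 76.6, 28.2 and 43.4 CPM in OSE tissue. In tumors it was 246 CPM at the lowest, 646 at the median and 1243 at the highest, and it had no count in any culture. *C1qb* was 107, 80.9 and 113 CPM in oviduct tissue, 46.8, 17.6 and 23.5 CPM in OSE tissue and 178 to 1089 CPM in tumors, with 1 read in OSE organoids 1 and none in the other cultures. *C1qa* was 41.6, 38.4 and 35.1 CPM in oviduct tissue, 11.9, 16.4 and 7.84 CPM in OSE tissue and 55.2 to 316 CPM in tumors, with no read in cultures. For all 3 genes tumor 2 was the highest library and tumor 3 the lowest tumor, and the lowest tumor was still above every tissue library.

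*Csf1r* was 13.2, 24.7 and 22.6 CPM in oviduct tissue, 15.3, 7.04 and 6.27 CPM in OSE tissue and 97.0 to 471 CPM in tumors, with a median of 214. Unlike the adaptors and C1q, it was counted in every culture, at 0.944, 1.71 and 1.33 CPM in wildtype oviductal organoids, 6.79 and 1.02 CPM in OSE organoids, 22.6, 29.5 and 16.1 CPM in Cas9-EGFP organoids, 34.1, 21.9 and 7.37 CPM in the TBP clones and 1.89 to 15.2 CPM in tumor-derived organoids. The 34.1 CPM of clone 1 rested on 3 reads. The Cas9-EGFP organoids and the clones therefore overlapped oviduct tissue in *Csf1r* with no *Tyrobp* or C1q read beside it. *Csf1r* overlaps *Hmgxb3* on the opposite strand, and reads had been kept only in the direction of transcription.

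*Cd14* was 77.5, 63.1 and 23.8 CPM in oviduct tissue and 8.52, 3.52 and 4.70 CPM in OSE tissue. It was higher in the organoids of the same origins, 243, 406 and 402 CPM in oviductal and 80.8 and 283 CPM in OSE organoids. In Cas9-EGFP organoids it was 272, 288 and 392 CPM, in the TBP clones 375, 382 and 69.9 CPM, and in the tumor-derived lines 106 (T1-mes), 240 (T2-epi), 22.6 (T3-mes) and 285 CPM (T4-epi). The tumors split into a pair at 469 (tumor 1) and 578 CPM (tumor 3) and 4 tumors between 71.9 and 114 CPM, so that the pair lay above every culture library (406 CPM at most) and the other 4 lay within the range of the cultures.

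*Cd68* was 13.5 to 32.5 CPM in tumors, with a median of 22.1. It was 16.0, 15.6 and 11.8 CPM in Cas9-EGFP organoids, 0, 16.6 and 12.7 CPM in the TBP clones and 2.83 to 18.5 CPM in tumor-derived organoids, whereas wildtype oviductal organoids had 0, 3.43 and 3.32 CPM and OSE organoids 0 and 1.02 CPM. All 6 tissue libraries had a count of 0, which allowed up to 1.57 to 4.11 CPM in each. *Cd68* thus went apart from *Tyrobp* and C1q, which were counted in the same tissue libraries.

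*Lyz2* was counted only in small numbers. It had 6 to 34 reads in each tumor, or 3.71 to 11.02 CPM, 3 reads in all over the 6 tissue libraries and none in the cultures. *Lyz1*, the Paneth cell lysozyme gene next to it, was 445 to 1461 CPM in tumors, 23.4, 43.9 and 55.1 CPM in oviduct tissue and 62.2, 15.3 and 22.5 CPM in OSE tissue. In the last 500 bases of the transcripts, 11.8% of 60-base windows were identical between *Lyz1* and *Lyz2*, so the split of reads between both rows is uncertain. No such window of *Fcgr3* was shared with *Fcgr2b* or *Fcgr4*.

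Whether tumors differed from the cells they grew from was asked by comparing them with the TBP clones. All 10 members passed the filter on low counts, 7 of them, with at most 4 reads in the clones, through the tumors alone. Of the 10, 8 were higher in tumors, *Csf1r*, *Lyz2*, *Fcgr3*, *Tyrobp*, *Fcer1g*, *C1qa*, *C1qb* and *C1qc*, beside a background of 20.1% of 10473 genes called higher. The 7 that entered through the tumors had little room for another call, so the count is a description and was not read against that share. Against the 3 counts that a total of 0 over the 3 clones allows, *C1qc* was at least 1390-fold higher in tumors, *C1qb* at least 1302-fold, *Tyrobp* at least 529-fold, *C1qa* at least 360-fold and *Lyz2* at least 17.2-fold. *Fcgr3* had 949 reads in tumors against 1 in clones, a ratio of 522 (95% counting interval 93.5 to 20637). *Fcer1g*, with 4 reads in clones, all of them in clone 3, was 306-fold higher in the fit (log2 8.26). *Csf1r* was 13.5-fold higher, at 230 ± 130 CPM (SD, n = 6) against 21.1 ± 13.4 CPM (SD, n = 3), log2 3.75 ± 0.65 (SE, adjusted p = 0.00165).

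*Cd14* and *Cd68* did not pass that test. *Cd14* was 231 ± 229 CPM (SD, n = 6) in tumors and 276 ± 178 CPM (SD, n = 3) in clones, with a log2 difference of −0.20 ± 0.81 (SE, adjusted p = 0.882), and for *Cd68* the difference was 0.77 ± 0.45 (SE, adjusted p = 0.215). Tumors 1, 3 and 4 had the highest neutrophil markers, and tumors 1 and 3 also the highest *Cd14*, so that leaving them out removes the high *Cd14* values. Without these 3 tumors *Cd14* was lower in tumors, at −1.65 on the log2 scale (adjusted p = 0.0410 in the edgeR fit). The tumors to leave out were chosen after the values were seen, and dropping high values favors this direction. That *Cd14* result is therefore a description and no test. The same 8 members remained called higher.

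Tumors were also compared with the tumor-derived organoids, grown under conditions meant to remove host cells. The same 8 members were higher in tumors, beside 15.1% of 10605 genes, and 7 of them, with at most 3 reads in the lines, again passed the filter through the tumors alone. *Csf1r* was 28.9-fold higher (log2 4.85 ± 0.64 SE, adjusted p = 0.000492). *C1qc*, *C1qb*, *Tyrobp*, *Fcer1g*, *C1qa* and *Lyz2* had no read in any of the 4 lines and were at least 1862-, 1743-, 708-, 585-, 482- and 23.1-fold higher in tumors. *Cd14* differed by 0.48 ± 0.82 (log2, SE, adjusted p = 0.703) and *Cd68* by 1.09 ± 0.45 (adjusted p = 0.0956), and neither passed the test. Without T4-epi, *Cd68* passed it, at 1.51 (adjusted p = 0.0413).

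Against oviduct tissue, which also held C1q and adaptor reads, 9 of the 10 members were higher in tumors, beside 23.7% of 10827 genes. Of these, *Cd68*, *Lyz2* and *Fcgr3* (0, 2 and 15 reads in tissue) were tested through the tumors alone. Tumors grew in NSG mice, and the paper describes those sequenced as subcutaneous. It names mice of other strains as the source of oviduct and OSE tissue. Host strain, site and tumor growth therefore cannot be told apart in this comparison. *Fcgr3* had the largest fold among those with more than 3 reads in tissue, at 82.8 ± 23.9 CPM (SD, n = 6) against 5.51 ± 2.83 (SD, n = 3), 15.2-fold (log2 3.92 ± 0.40 SE). *Csf1r* was 11.4-fold higher (3.51 ± 0.52), *Tyrobp* 9.93-fold (3.31 ± 0.40), *Fcer1g* 6.77-fold (2.76 ± 0.38), *C1qb* 5.97-fold (2.58 ± 0.52), *C1qa* 4.30-fold (2.10 ± 0.47) and *C1qc* 3.78-fold (1.92 ± 0.46), with adjusted p between 0.000154 and 0.00723. *Cd68* was at least 22.4-fold higher, against no read in tissue, and *Lyz2* had 94 reads against 2, a ratio of 11.6 (95% counting interval 3.13 to 97.5). However, *Cd68* was also 11.8 to 16.0 CPM in Cas9-EGFP organoids, which had no *Tyrobp* read. The part of myeloid cells in the *Cd68* fold was not tested. *Cd14* did not pass the test at 4.21-fold (2.07 ± 0.86, adjusted p = 0.0714), but it did with DESeq2 (adjusted p = 0.0177), with all libraries in the fit (0.0442) and without tumor 5 (0.0481).

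**Figure D2:**
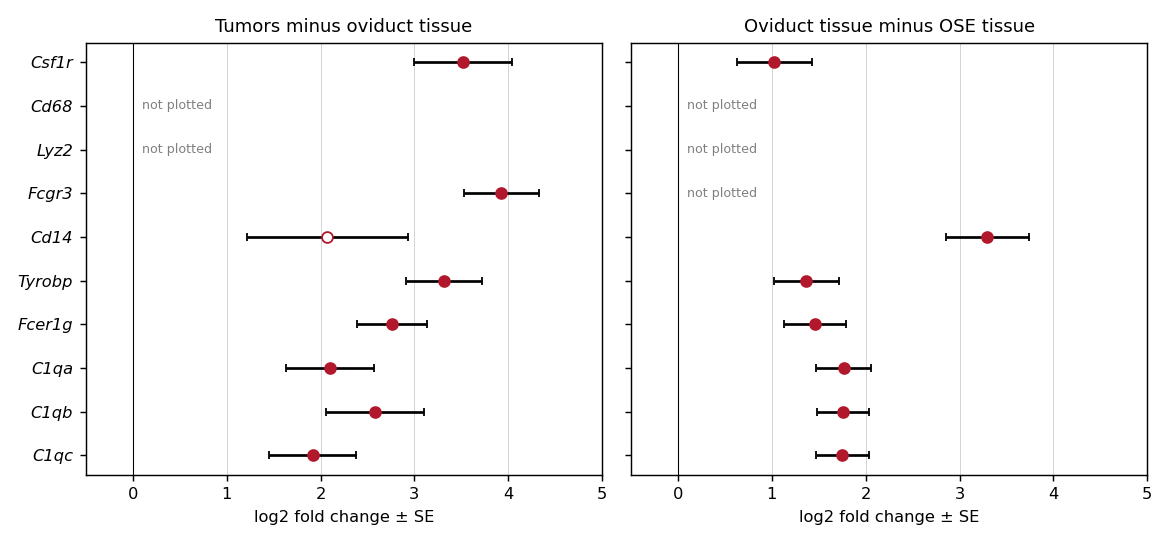
Log2 fold change ± SE of members between tumors and oviduct tissue (left) and between oviduct and OSE tissue (right), with filled points at an adjusted p under 0.05. Genes with 3 or fewer reads in the lower group, or not tested, are not plotted; in the left panel *Fcgr3* lies at 3.92 and *C1qc* at 1.92.

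The folds were unequal, so member counts were set against the *Tyrobp* count of the same library. This ratio was chosen after the folds had been seen and restates them library by library, so it is given with no test. *C1qc* made 807, 700 and 614 counts per 100 *Tyrobp* counts in oviduct tissue and 168 to 357 in tumors, 2.84-fold lower in tumors. For *C1qa* the ratio was 190, 233 and 100 in oviduct tissue and 40.2 to 91.4 in tumors, 2.59-fold lower, and for *Fcgr3* it was 16.7, 25.0 and 25.0 against 25.6 to 43.3, 1.57-fold higher. In these 3 genes tumors and oviduct tissue did not overlap, whereas *C1qb* (1.90-fold lower), *Fcer1g* (1.56-fold lower) and *Csf1r* (1.05-fold higher) overlapped. For *Fcgr3* the groups nearly touched, and the oviduct ratios rested on 5, 3 and 7 *Fcgr3* reads against 30, 12 and 28 *Tyrobp* reads. The C1q ratios also differed among the tumors along with neutrophil markers, and neutrophils express *Tyrobp* too. Tumors 1, 3 and 4, with the highest neutrophil sums, had *C1qc* ratios of 168, 185 and 201 and *C1qb* ratios of 131, 133 and 189. In tumors 2, 5 and 6 the *C1qc* ratios were 357, 341 and 303, still below oviduct tissue, and the *C1qb* ratios were 313, 320.2 and 378, which reached the lowest oviduct tissue value of 321. The part of neutrophils in these ratios was not tested. OSE tissue had only 5 to 19 *Tyrobp* reads a library. Its *C1qc* ratios of 692, 480 and 437 lay above all tumors, but those of *C1qa* (108, 280 and 78.9), *C1qb* (423, 300 and 237) and *Fcgr3* (46.2, 20 and 15.8) overlapped the tumors.

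**Figure D3:**
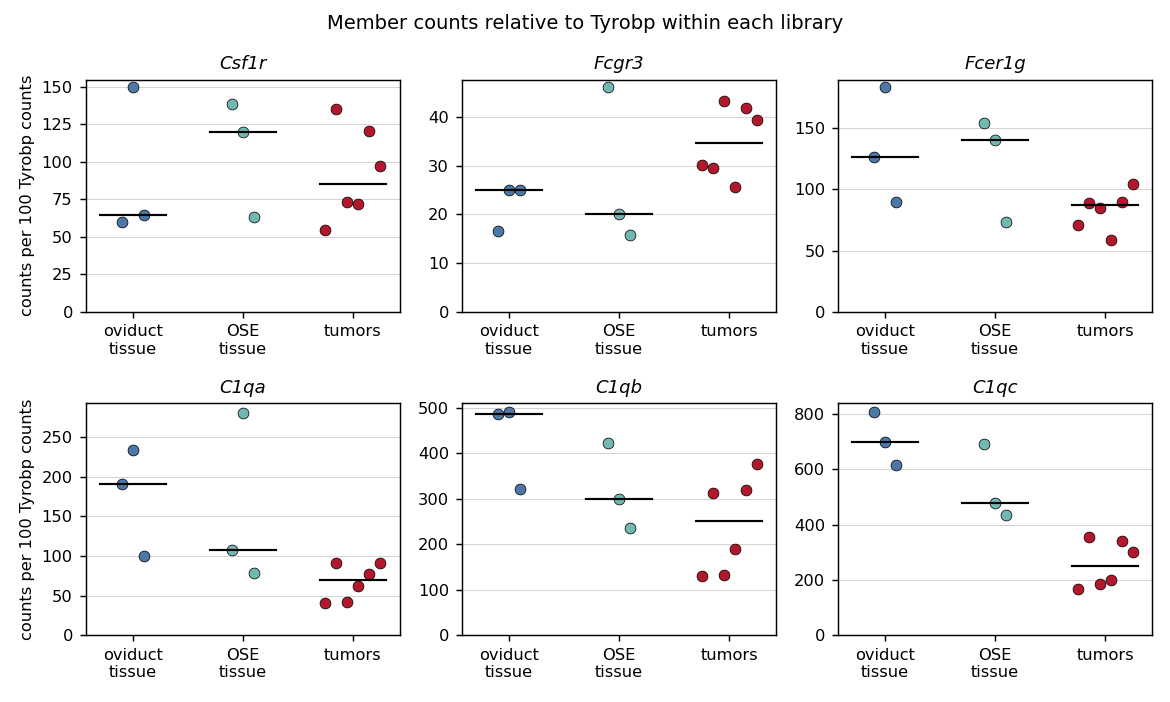
Counts of 6 members per 100 *Tyrobp* counts in each library of oviduct tissue, OSE tissue and tumors, with 1 point a library and a line at the median. *C1qc* lies between 614 and 807 in oviduct tissue and between 168 and 357 in tumors, whereas *Csf1r* overlaps in all 3 groups.

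Oviduct and OSE tissue were compared to ask how the normal tissues of origin differ. *Cd68*, *Lyz2* and *Fcgr3* had too few reads to be tested. The other 7 members were all higher in oviduct tissue, beside 26.9% of 8787 genes. Only *C1qb* and *C1qc* had enough reads in OSE tissue to pass the filter by that group. The others were tested through oviduct tissue, where they were high, so the count and their adjusted p values are descriptions. *Cd14* was 9.83-fold higher, at 54.8 ± 27.8 CPM (SD, n = 3) against 5.58 ± 2.61 (SD, n = 3), log2 3.30 ± 0.44 (SE, adjusted p = 1.66e-05). The C1q genes differed by nearly the same amount, *C1qa* by 1.76 ± 0.30, *C1qb* by 1.76 ± 0.27 and *C1qc* by 1.75 ± 0.29 on the log2 scale, with adjusted p between 7.82e-05 and 0.000147. *Fcer1g* was 2.75-fold higher (adjusted p = 0.00178) and *Tyrobp* 2.58-fold (adjusted p = 0.00424), and in all 6 of these genes the groups did not overlap. *Fcer1g* lost the call with all libraries in the fit (adjusted p = 0.0810). *Csf1r* was 2.04-fold higher (adjusted p = 0.0417) with overlapping groups, and it lost the call with DESeq2 (adjusted p = 0.151), with all libraries in the fit (0.284), and without oviduct tissue 2 or 3 (0.124, 0.0955) or OSE tissue 2 or 3 (0.124, 0.242).

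Organoids were set against the tissue they came from to ask what culture kept. In oviductal organoids 6 of the 7 members tested were lower, beside 24.2% of 9477 genes called lower, and *Cd14* was higher, beside 18.7%. The 6 had at most 7 reads in organoids and passed the filter through the tissue alone. Their count is therefore a description and was not read against that share. *C1qc* was at least 270.2-fold lower, *C1qb* at least 159.9-fold, *C1qa* at least 61.3-fold and *Tyrobp* at least 39.1-fold, against no read in organoids. *Fcer1g* was 19.7-fold lower (log2 −4.30 ± 0.64 SE), with its 7 reads all in organoids 1, and *Csf1r* 14.4-fold lower (−3.85 ± 0.51). *Cd14* was 6.30-fold higher, at 350 ± 93.0 CPM (SD, n = 3) against 54.8 ± 27.8 (SD, n = 3), log2 2.66 ± 0.34 (SE, adjusted p = 6.22e-05).

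In OSE organoids 5 of the 7 members tested were lower than in OSE tissue, beside 18.6% of 10232 genes called lower, and *Cd14* was again higher, beside 14.5%. The 5 had at most 3 reads in organoids and passed the filter through the tissue alone, so this count too is a description. *C1qc* was at least 54.0-fold lower, *C1qa* at least 13.2-fold and *Tyrobp* at least 9.79-fold. *C1qb* had 115 reads in tissue against 1 in organoids and *Fcer1g* 41 against 3, ratios of 95.7 (95% counting interval 16.8 to 3814) and 11.4 (3.63 to 57.4). *Cd14* was 32.7-fold higher (5.03 ± 0.63 SE, adjusted p = 0.00203). *Csf1r* did not pass at −1.36 ± 0.82 (adjusted p = 0.248), and it was lower at −3.04 (adjusted p = 0.00548) without OSE organoids 1, which held 9 of its 11 reads, a fit that takes the spread of the lone organoid library from the tissue. The *Cd14* change in oviduct minus that in OSE was −2.26 ± 0.79 (log2, SE, adjusted p = 0.0824 in the fit of the 4 groups), which did not pass the test.

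Between the organoid groups no member was called. For oviductal against OSE organoids 1 member, *Cd14*, was tested, at 1.93-fold with edgeR (0.95 ± 0.54 SE, adjusted p = 0.565), beside 0.0864% of 9257 genes called higher, and it was called without OSE organoids 2 (adjusted p = 0.00416), with the spread of the lone OSE library taken from the other group, in a fit that called 859 of 9844 genes higher. For TBP clones against Cas9-EGFP organoids *Cd14*, *Csf1r* and *Cd68* were tested and none was called by edgeR, beside 0.389% of 7708 genes called higher and 0.428% lower. Neither comparison had a member at an unadjusted p under 0.05, and DESeq2 also called 0. The differences were −0.23 ± 0.53 for *Cd14*, −0.51 ± 0.57 for *Csf1r* and −0.11 ± 0.51 for *Cd68* (log2, SE).

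Other genes of these pathways were followed in lists. Of 30 macrophage identity genes 26 could be tested between tumors and clones, and 25 were higher, with a median log2 change of 8.33, or 6.28 with genes at 0 in the clones set to their lower bound, against 0.16 over all genes and 20.1% of them called higher. In the clones 11 of the 30 had any read, so most of the 26 were tested through the tumors alone. *Apoe* was 733 to 2318 CPM in tumors, *Ctss*, a lysosomal protease, 204 to 800, *Laptm5* 144 to 452, *Ptprc*, the pan-leukocyte CD45, 57.6 to 148, *Adgre1* (F4/80) 18.5 to 114 and *Spi1* 22.9 to 65.0 CPM, and in cultures *Laptm5* and *Adgre1* had no read. Other list genes were counted in cultures, 12 of the 30 in oviductal organoids and 18 in tumor-derived lines, where *Gpnmb* reached 186 CPM and *Mrc1* 47.5 CPM. *Cd53* was the 1 tested list gene not called, at 282 to 701 CPM in tumors and 188 to 540 CPM in clones. It was 594 to 1214 CPM in oviductal organoids and 30.2 and 2800 CPM in OSE organoids. Against oviduct tissue 18 of 26 were higher and none lower, beside 23.7% and 22.4% of all genes. Some of the 26 were tested through the tumors alone, such as *Msr1* with 3 reads in tissue. *Spi1* did not pass at 22.9 to 65.0 CPM in tumors and 43.9 to 58.9 CPM in tissue (log2 −0.24, adjusted p = 0.592).

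Receptors and kinases of ITAM signaling gave 17 higher of 19 tested against clones, 17 of 18 against tumor-derived organoids and 17 of 18 against oviduct tissue, where 20.1%, 15.1% and 23.7% of all genes were higher. Of the 23 list genes measured, 3 had a read in the clones and 8 in the tumor-derived lines, so most were tested there through the tumors alone. Most also had few reads in oviduct tissue, such as *Fcgr1* with 4, and were tested through the tumors there too. The counts are therefore descriptions. *Clec4n*, which encodes Dectin-2 and signals through FCER1G, was 141 to 444 CPM in tumors and 5.01 to 5.48 CPM in oviduct tissue, the adaptor *Lcp2* 51.2 to 151 and 4.11 to 9.50 CPM, and the high-affinity IgG receptor *Fcgr1* 29.9 to 123 and 1.25 to 1.46 CPM. *Trem2* was 15.8 to 72.8 CPM in tumors and was also counted in cultures, at 3.59 CPM in T1-mes and 11.8 CPM in T3-mes. The inhibitory receptor *Fcgr2b* (22.2 to 73.5 CPM) and the activating *Fcgr4* (5.79 to 28.4 CPM) were also higher in tumors than in oviduct tissue. They had 14 and 12 reads in that tissue and were tested through the tumors alone.

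Among 8 genes of the CSF1R axis, its ligand gene *Csf1* was 59.3 to 227 CPM in tumors, 0 to 4.28 CPM in clones and 8.22 to 12.4 CPM in oviduct tissue. *Csf1* was higher in tumors than in clones (log2 5.04), where its 23 reads left it tested through the tumors alone. It was also higher in tumors than in oviduct tissue (log2 3.51, adjusted p = 0.000180). In tumor-derived organoids it was 160.5 (T1-mes), 24.1 (T2-epi), 353 (T3-mes) and 12.3 CPM (T4-epi), and it did not differ detectably from tumors (log2 −0.15, adjusted p = 0.901). *Il34*, the other ligand, was 12.5 to 42.7 CPM in tumors and was higher than in oviduct tissue (log2 2.23). It had 15 reads in that tissue and was tested through the tumors alone. Of this list 3 of 5 tested were higher against clones, 2 of 4 against tumor-derived organoids and 4 of 5 against oviduct tissue, with *Csf2ra* lower. Of all genes 20.1%, 15.1% and 23.7% were higher in these comparisons, and 22.4% were lower against oviduct tissue.

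In the lipopolysaccharide receptor list, 5 of 12 tested genes were higher and 1 was lower in tumors than in clones, beside 20.1% and 11.7% of all genes. *Tlr4* was 8.69 to 24.3 CPM in tumors, 15.0 to 16.4 CPM in oviduct tissue, 0 to 1.05 CPM in OSE tissue and 14.8 to 34.7 CPM in wildtype organoids. Like *Cd14* it was higher in oviduct than OSE tissue (log2 4.19), where its 3 reads left it tested through oviduct tissue alone. Also like *Cd14*, it was called higher in oviductal organoids than in oviduct tissue (0.87, adjusted p = 0.0281). *Lbp*, which encodes the serum protein that loads CD14, was 489 to 560 CPM in oviduct tissue, 4.70 to 5.87 CPM in OSE tissue, 645 to 1282 CPM in oviductal organoids and 14.6 to 91.3 CPM in tumors, lower than in clones (log2 −3.63, adjusted p = 0.00350). *Ly86*, which encodes a partner of the receptor CD180, was 46.4 to 220 CPM in tumors and 0 in cultures. *Ly96*, encoding MD-2, stayed under 10 CPM in every library.

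Of 17 other complement genes 9 of 14 tested were higher and 1 lower in tumors than in clones, and 6 of 15 higher and 3 lower against oviduct tissue, with 10 of the 17 having any read in the clones. Of all genes 20.1% were higher and 11.7% lower against clones, and 23.7% and 22.4% against oviduct tissue. The median log2 change against oviduct tissue was −0.26, where all genes had 0.08. *C3*, which the C1 complex acts on through C4 and C2, was 1074 and 2161 CPM in tumors 1 and 3 and 81.1 to 175 CPM in the other 4 tumors, 482 to 2374 CPM in the clones and 3763 to 8340 CPM in Cas9-EGFP organoids. *Serping1*, the C1 inhibitor, was 81.6 to 359 CPM in tumors, 341 to 442 CPM in oviduct tissue and at most 18.9 CPM in cultures. *Itgb2*, a chain of complement receptors on leukocytes, was 218 to 448 CPM in tumors. Of 16 genes of lysosome and phagocytosis 5 were higher against clones and 8 higher and 1 lower against oviduct tissue, beside 20.1% and 23.7% of all genes higher, the first a share not far above the background. Unlike the C1q genes they were also counted in cultures, as with *Lamp1*, at 1610 to 3678 CPM in tumors and 341 to 1980 CPM in cultures.

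Markers of other cells were summed in the same libraries. T cell (9 genes), B cell (5) and NK cell (8) markers summed to at most 25.9, 6.76 and 1.22 CPM in tumors, with no read of *Cd3e*, *Cd3g*, *Cd8a*, *Cd2*, *Ms4a1*, *Ncr1*, *Nkg7*, *Gzma* or *Klrb1c*. *Cd4*, which some mouse myeloid cells also express, was the T cell gene with most reads, at 2.90 to 21.3 CPM. Neutrophil markers summed to 13.2 to 1562 CPM in tumors against 42.5 to 58.9 CPM in oviduct tissue and at most 48.0 CPM in cultures, and all 12 genes had reads in tumors. *S100a8* was 298, 600.2 and 208 CPM in tumors 1, 3 and 4 and 1.93 to 12.3 CPM in the others. Mast cell markers summed to 46.3 to 417 CPM in tumors, with the protease *Tpsb2* at 8.53 to 66.7 CPM, against 1735 to 2187 CPM in oviduct tissue, of which *Hdc* made 1576 to 1995. Erythroid markers reached 6994 CPM in tumor 6, 133 to 364 CPM in the other tumors and 337 to 928 CPM in oviduct tissue. Endothelial markers were 92.1 to 251 CPM in tumors and 202 to 218 CPM in oviduct tissue, dendritic cell markers, mostly *Fscn1* and *Irf8*, 129 to 483 CPM in tumors, and fibroblast genes 11021 to 59469 CPM in tumors. *Tyrobp*, *Fcer1g*, *Fcgr3* and *Cd14* are also expressed by neutrophils and some by mast cells, and the part of these cells in the levels was not tested. With tumors 1, 3 and 4 left out, 8 members were higher against clones, 8 against tumor-derived organoids and 9 against oviduct tissue, in fits that called 1647 of 9740, 1102 of 10432 and 2464 of 9641 genes higher.

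**Figure D4:**
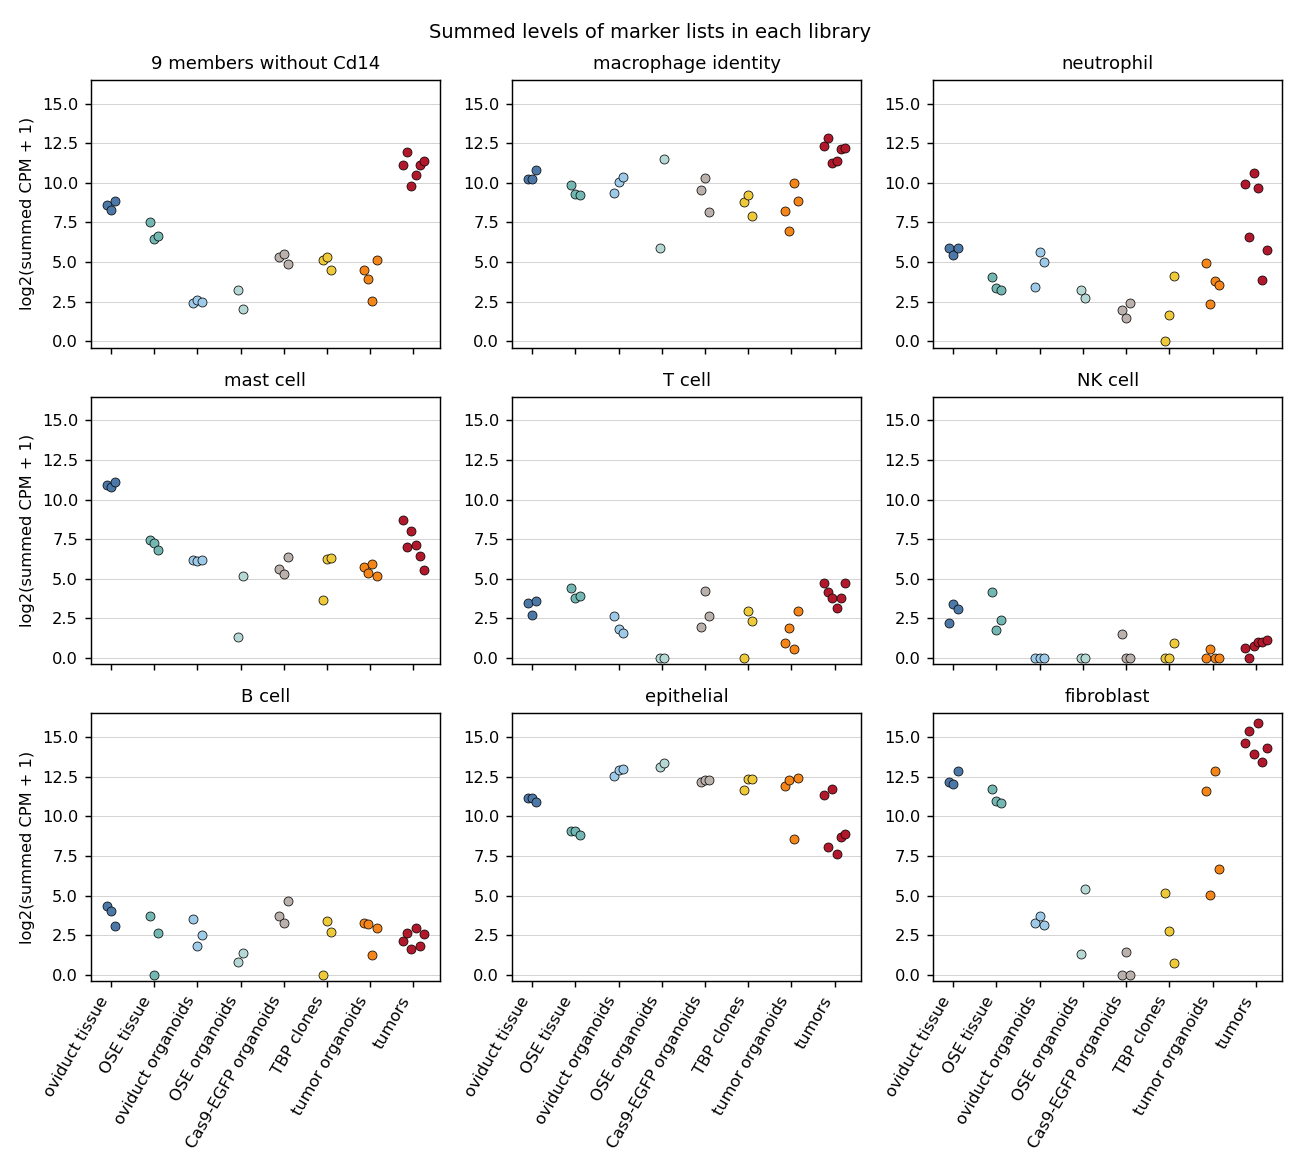
Summed CPM of the 9 members without *Cd14* and of 8 marker lists in each of the 27 libraries, as log2(summed CPM + 1), by group. The 9 members sum to 896 to 3920 CPM in tumors and to at most 45.2 CPM in any culture, while NK cell markers stay at or under 1.22 CPM in tumors.

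Among the tumors, the members other than *Cd14* summed to 2221, 3920, 896, 1441, 2194 and 2628 CPM in tumors 1 to 6. Tumor 2 was the highest in *Csf1r*, *Fcer1g* and C1q and tumor 1 in *Tyrobp*, *Fcgr3* and *Cd68*. *Cd14* had another order. The pair with high *Cd14*, tumors 1 and 3, also had the highest sum of 8 epithelial genes, 2572 and 3314 CPM against 198 to 480 CPM in the other 4, and *Cdh1* at 760 and 775 CPM against 4.19 to 88.9 CPM. Neutrophil markers were 977 and 1562 CPM in this pair, but also 795 CPM in tumor 4, where *Cd14* was 82.1 CPM. Cas9-EGFP organoids had *Cd14* at 272 to 392 CPM with no *Tyrobp* read and neutrophil markers summing to 1.74 to 4.28 CPM. The parts of epithelial cells, neutrophils and macrophages in tumor *Cd14* were not tested. No member had a single tumor or tumor-derived line set far apart from the rest of its group by Dixon's criterion, in 14 sets of values examined. The criterion looks at 1 extreme value at a time, so it could not flag a pair such as tumors 1 and 3 in *Cd14*.

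**Figure D5:**
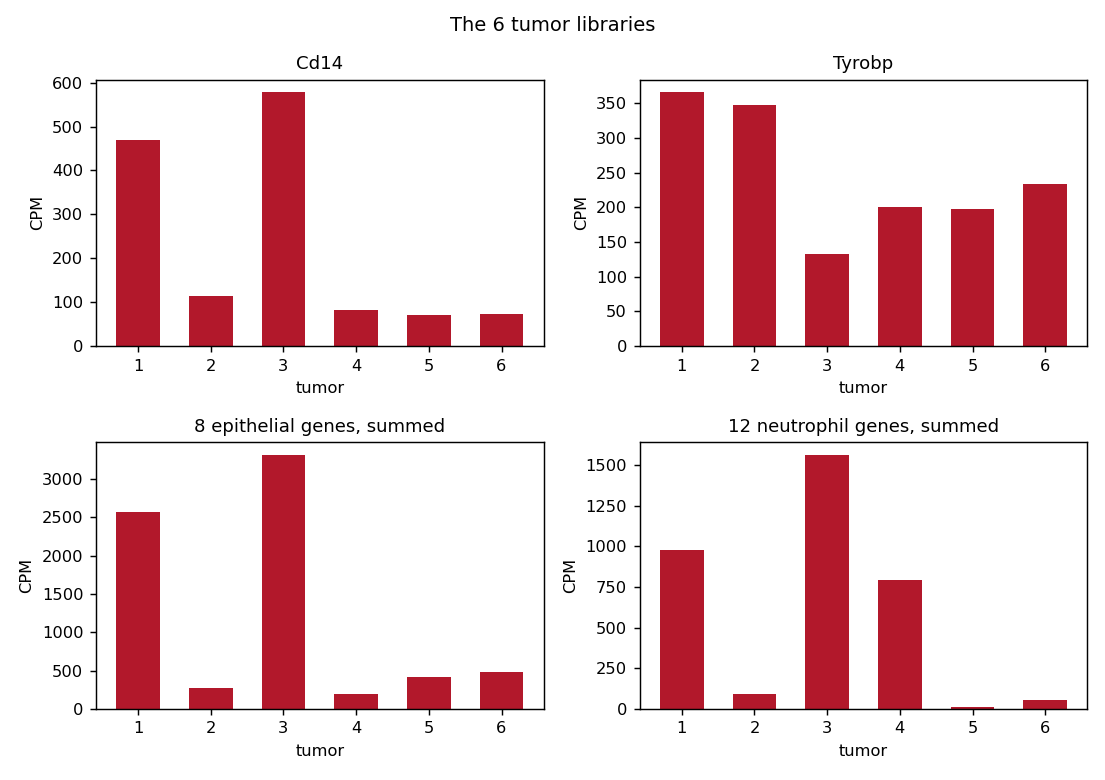
*Cd14*, *Tyrobp*, the sum of 8 epithelial genes and the sum of 12 neutrophil genes in each of the 6 tumors, in CPM on linear axes from 0. Tumors 1 and 3 hold the high *Cd14* values (469 and 578 CPM) and the high epithelial sums (2572 and 3314 CPM), and tumor 4 has high neutrophil genes with low *Cd14*.

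As a measure of likeness, each of 11169 other genes with at least 10 CPM in at least 3 libraries was correlated with the mean log2(CPM + 1) of the 10 members over the 27 libraries. The 10 closest were *Laptm5* (Pearson's r 0.995), *Emr1* (the older name of *Adgre1*), *Lcp2*, *Nckap1l*, *Sla*, *Itgam*, *Ly86*, *Ccl12*, *Fcrls* and *Fam105a* (0.984). The libraries fall into groups of tumors, tissue and cultures, so r mostly describes that split. Over the 6 tumors alone the closest were *Serinc3*, *Ube2v1*, *Ap2a2*, *Cd52*, *Zswim6*, *Rab7l1*, *Tmem55b*, *Laptm5*, *Csf2ra* and *Slc15a3* (r 0.994 to 0.977), which over 6 points among 11040 genes is a description only. Each member was also correlated with the mean of the other 9 over the 27 libraries. The r was 0.851 to 0.985 for *Csf1r*, *Lyz2*, *Fcgr3*, *Tyrobp*, *Fcer1g* and the C1q genes, 0.306 for *Cd68* and −0.171 for *Cd14*. Over the 6 tumors alone *Cd68* went with the other members (r 0.955), as did the other 8 (0.770 to 0.977), and *Cd14* did not (−0.414).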

How the data were processed

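The authors made the libraries with CEL-Seq2, which tags 3′ ends, sequenced them on a NextSeq500 (75 bp paired-end) and aligned reads with BWA to GRCm38. The deposited values are whole read counts per gene, from uniquely mapped reads in the direction of transcription, without correction for molecular identifiers, so counting intervals and floors cover counting error only. The submitters' notes name DESeq2 1.18.0. Of 18306 rows, 1 spike-in row (1 count) was left out. GEO's labels gave the groups, and the replicates were described as independent. The TBP clone libraries outnumber the independent clones that the paper names for each combination of mutations, so some may share a clone. Every pair of libraries within a group differed by more than counting noise (chi-square per degree of freedom 2.77 or more). The members and lists were chosen with earlier results of these data known.

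Each comparison used the libraries of both groups, edgeR 4.0.16 (R 4.3.3; TMM, filterByExpr, quasi-likelihood test) and Benjamini-Hochberg adjustment over all genes tested, with 0.05 as the threshold. Against 0 reads, a fold is a lower bound from 3 counts over the group; for 1 to 3 reads, a ratio with an exact 95% interval. A library's floor is 3 counts. SEs are the log2 fold change over the square root of its F statistic. The scripts were tested on simulated counts with 200 changed genes. The named genes were all 10 members, fixed partner genes and, per list, up to 4 with the highest tumor mean, plus the 10 genes most like the members. Marker genes at 0 in tumors were named after their values were seen. Of 217 list symbols 206 were in the table, 5 under an older name. Alternatives were DESeq2 1.42.0, its size factors, no filter, all libraries in the fit, each library left out, the replicate block and tumors 1, 3 and 4 left out. Protein sequences were not used here, and not every edited gene is reported here.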

Additional observations from a re-analysis of the deposited data

How the results depend on the processing

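Counts of called members stayed within 1.5 times the reported count under DESeq2, size factors of DESeq2, no filter on low counts, all 27 libraries in the fit and each library left out, with 1 exception: between oviductal and OSE organoids 0 to 1 members were called higher, the 1 being *Cd14* without OSE organoids 2. Without tumors 1, 3 and 4, a choice made after seeing the data, 1 member (*Cd14*) was lower in tumors than in clones, against 0. Of the fits of single members, 678 kept their direction and side of the threshold, 10 lost the call, 7 gained it and 6 changed sign, none of the last in a called gene. With a library left out, *Cd14* ranged from −0.74 to 0.29 on the log2 scale between tumors and clones (0.0075 without clone 1, 0.29 without clone 2) and from −0.067 (without tumor 3) to 0.90 between tumors and tumor-derived organoids, where it was −0.97 without tumors 1, 3 and 4. Between clones and Cas9-EGFP organoids, *Csf1r* ranged from −1.22 to 0.079 and *Cd14* from −0.69 to 0.28, both highest without clone 3. *Fcer1g* between oviduct and OSE tissue lost its call with all libraries in the fit (adjusted p = 0.0810). The cause was not tested.

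Counts over all genes moved more. Between oviductal and OSE organoids edgeR called 8 genes higher and 0 lower, and DESeq2 175 and 89, no filter 78 and 38, and all libraries 100 and 63. That comparison gave 859 and 589 without OSE organoids 2, 151 and 100 without OSE organoids 1, and 0 and 0 without any 1 oviductal library. OSE organoids against tissue moved from 1485 higher and 1902 lower to as few as 689 and 1079 (without OSE tissue 3), and to 2686 and 3064 without OSE organoids 1 and 2383 and 3076 without OSE organoids 2. Between clones and Cas9-EGFP organoids the 30 higher and 33 lower became 50 and 65 with DESeq2 and 196 and 176 without the filter, and 0 to 77 and 3 to 131 with a library left out. Without clone 2, 772 against 1228 genes were lower in tumors than in clones. DESeq2 called 2442 genes higher in tumors than in tumor-derived organoids against 1602. With all libraries in the fit, 1982 against 1228 were lower in tumors than in clones, 1565 against 2362 higher and 1119 against 2133 lower in oviduct than OSE tissue, 1057 against 1771 higher in oviductal organoids than tissue and 17 against 30 higher in clones. The median of all genes between tumors and clones was 0.16 with TMM and 0.33 with DESeq2.

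Correlations over genes of the deviations of same-numbered libraries ran from −0.48 to 0.08. Between oviduct and OSE tissue they were 0.036, 0.0845 and 0.042, against −0.058 to 0.022 for differently numbered pairs. Such small values do not settle whether the numbers pair the tissues. With the replicate block, 2 of 5 members were called lower in OSE organoids than OSE tissue, *C1qb* and *C1qc*, on the libraries numbered 1 and 2; *C1qa* (adjusted p = 0.0535) and *Fcer1g* (0.0854) missed the threshold and *Tyrobp* was not tested. *Csf1r* between the tissues missed it too (0.0509), and 7 members were called higher in tumors than in tumor-derived organoids, *Lyz2* not being tested, where calls over all genes fell to 246 higher and 164 lower. That last block joined tumors and lines by number alone, as the labels do not name the tumor of each line. Depth limits *Lyz2*, *Cd68* and *Fcgr3* in tissue, where 10 to 15 *Fcgr3* reads a group were too few to test, and every statement on TBP clone 1.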
